A study of Homo sapiens with 18 samples.

Results

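RNA-seq libraries numbered 1 and 2 were compared with libraries numbered 3 and 4 of the same cell lines. The comparison held 12 of the 18 libraries: 6 with the numbers 1 and 2 and 6 with the numbers 3 and 4. They were chosen by the replicate number in their titles and by nothing measured. All came from THP-1, an established human monocytic acute myeloid leukaemia line that carries the MLL-AF9 fusion. Each number occurred once in each of 3 lines, which gave 2 libraries of a line in each set. The genotypes given are PHF8, named for a JmjC-domain enzyme that removes methyl groups from histones, F279S, a substitution in PHF8 known to impair its demethylase activity, and wt. Per the labels' protocols, both sets were grown in DMEM with fetal bovine serum and RNA was isolated on RNeasy columns. Poly(A) RNA was selected, and NEBNext kits and NextSeq sequencing were used throughout. No treatment is named for any of the 12 libraries. The labels give no difference between the numbers other than the number itself. They do not say whether numbers mark separate cultures, days or runs. The p-values therefore measure only the spread between these libraries, which may be technical, and a difference in culture cannot be told apart from one in RNA handling or sequencing. The labels do not state how the PHF8 and F279S lines were made, nor whether they are clones or pools.

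Cultured leukaemia cells adjust several large transcript programmes together with growth, nutrients and oxygen. MYC and related factors drive the genes of ribosome assembly, the heat shock factor HSF1 drives cytosolic chaperones, and the unfolded protein response drives chaperones of the endoplasmic reticulum (ER). When oxygen falls, hypoxia-inducible factors (HIF) raise genes of glycolysis, glucose uptake and mitophagy, and when sterols fall, SREBP2 raises the genes of cholesterol synthesis. Monocytic cells also change surface receptors and class II antigen presentation genes as they mature.

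Library totals were 18239474 to 24325962 reads in libraries 1 and 2 and 20783586 to 51517469 reads in libraries 3 and 4. With every library thinned to the same total, 16185 to 16674 genes had a read in libraries 1 and 2 and 17017 to 17331 in libraries 3 and 4. PHF8 itself was high in the PHF8 and F279S lines and low in wt in both sets, with 2096 and 2080 CPM in PHF8, 5781 and 5333 in F279S and 53.4 and 49.3 in wt in libraries 1 and 2, and 2006 and 1900 CPM in PHF8, 5409 and 5001 in F279S and 54.03 and 45.5 in wt in libraries 3 and 4 (log2 difference 0.08 ± 0.05, SE, adjusted p = 0.16). The monocytic identity held in all 12 libraries, where PTPRC, SPI1, CD68, CSF1R and CEBPA each exceeded 100 CPM, while CD14 was at 2.25 to 8.75 CPM. Defining markers of T cells (CD3D, CD3E, CD2) were at most 0.119 CPM and the erythroid HBB at most 0.0411 CPM, with the B cell gene MS4A1 at most 0.0597 CPM. PHF8 library 1 and F279S library 2 stood apart in fibroblast transcripts. COL1A2 was at 10.0 CPM in PHF8 library 1 and 10.2 CPM in F279S library 2, against at most 0.247 CPM in the other 10 libraries, and COL1A1 was at 13.28 and 20.45 CPM in these libraries, against at most 1.69 CPM. The 8 fibroblast genes examined, chosen after these values were seen, summed to 44.8 and 56.0 CPM there and to 3.19 to 11.9 CPM elsewhere. Counts are given with all 12 libraries, and those that moved by over 1.5 times without these 2 libraries are named. Levels are CPM, reads of a gene scaled to the library total, and differences are libraries 1 and 2 minus libraries 3 and 4 on the log2(CPM + 0.5) scale, fitted with limma over the lines with the line as a block. A bracketed pair is such a difference ± SE and its limma adjusted p, and x against y gives libraries 1 and 2 against libraries 3 and 4, as mean ± SD (n = 6) where ± follows a CPM value.

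The sets differed in most of the transcripts tested. Of 13683 genes, 3964 (29.0%) were higher and 4638 (33.9%) were lower in libraries 1 and 2 (limma, Benjamini-Hochberg adjusted p below 0.05). With upper-quartile scaling the split was 3155 higher and 5590 lower, and with quantile normalization 4451 higher and 3757 lower, so the side with more calls depended on the scaling. A stricter count asked in addition that, in each of the 3 lines, both libraries of a set lay above both libraries of the other set: 2801 genes (20.5%) were higher in this way in every line and 2828 (20.7%) were lower. With the pair of libraries averaged within each set and line, so that 3 means met 3 means, 4269 of the 8602 calls remained. Averaging leaves each difference as it was, so the direction of these calls could not change. The set accounted for 40.9% of the variance over all tested genes, the line for 41.7%, their interaction for 9.68% and the spread between paired libraries for 7.74%. The first principal component (45.6% of variance) separated the sets and the second (36.4%) separated PHF8 from the other lines. Differences were mostly moderate, and the large ones lay on the lower side. Among genes called in every line, 10 were higher by at least 1 log2 unit and 260 were lower by as much. By at least 2 log2 units, 0 were higher and 16 were lower.

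**Figure D1:**
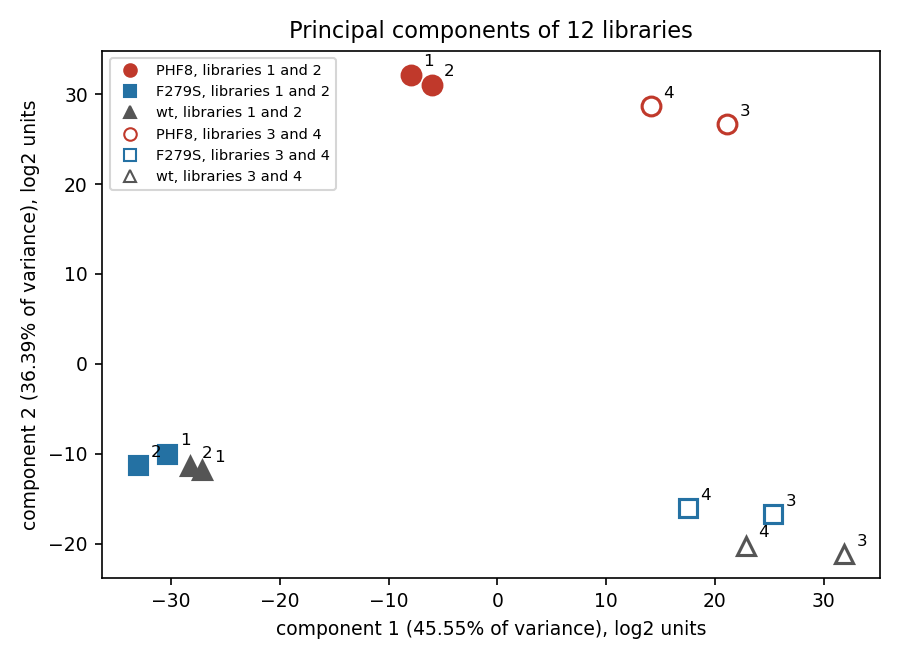
Principal components of log2(CPM + 0.5) over 13683 genes in the 12 libraries; the horizontal axis carries 45.6% and the vertical axis 36.4% of the variance. Filled symbols are libraries 1 and 2, open symbols libraries 3 and 4, and small digits give the library number; within each of the 3 lines libraries 1 and 2 lie to the left of libraries 3 and 4.

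The 12 largest rises were taken among genes called in every line that overlap no other gene. At least 5 CPM on average in the higher set was also required. The largest of these rises was SLC7A11 (chromosome 4, 138164097 to 138242349, hg38), the cystine-glutamate antiporter that feeds glutathione synthesis. It stood at 27.6 and 24.8 CPM in PHF8, 26.9 and 21.7 in F279S and 16.6 and 17.5 in wt among libraries 1 and 2, and at 13.8 and 12.2 CPM in PHF8, 8.5 and 9.53 in F279S and 5.66 and 5.1 in wt among libraries 3 and 4. The sets did not overlap in any line, nor over all lines, and the difference was 1.31 ± 0.10 (SE, adjusted p = 5.4e-07), a 2.47-fold ratio of means. HSPA1B (chromosome 6, 31827735 to 31830255), the inducible HSP70, had 36.7 and 38.9 CPM in PHF8, 48.3 and 46.4 in F279S and 33.6 and 38.9 in wt in libraries 1 and 2, and 17.9 and 15.3 CPM in PHF8, 20.3 and 18.7 in F279S and 16.1 and 16.9 in wt in libraries 3 and 4, without overlap (1.18 ± 0.06, 1.8e-08). Its near-identical copy HSPA1A can share its reads. DDX21 (chromosome 10, 68956128 to 68985073), a nucleolar RNA helicase, had 415 and 394 CPM in PHF8, 475 and 456 in F279S and 435 and 453 in wt against 273 and 284 CPM in PHF8, 183 and 185 in F279S and 172 and 176 in wt. All 6 libraries numbered 1 and 2 lay above the others, and within libraries 3 and 4 the PHF8 line was the highest (1.07 ± 0.11, 5.9e-06). HSPA5 (chromosome 9, 125234853 to 125241330), the ER chaperone BiP, had 674 and 673 CPM in PHF8, 1109 and 1147 in F279S and 878 and 889 in wt against 422 and 442 CPM in PHF8, 466 and 485 in F279S and 398 and 425 in wt, again with no overlap (1.00 ± 0.08, 1.0e-06).

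The remaining 8 of the 12 largest rises chosen in this way ranged between 0.91 and 1.06 log2 units. They were HSD11B1 (1.06 ± 0.08), which regenerates active cortisol from cortisone, TRMT61A (0.98 ± 0.13), the catalytic subunit of a tRNA methyltransferase, HSPH1 (0.97 ± 0.08), an HSP110 exchange factor, and HSPA8 (0.94 ± 0.10), the constitutive HSC70. NOL6 (0.95 ± 0.10) and UTP20 (0.93 ± 0.11) are assembly factors of the small ribosomal subunit. POLR3B (0.92 ± 0.09) is a subunit of RNA polymerase III, and KBTBD8 (0.91 ± 0.11) is a substrate adaptor of a CUL3 ubiquitin ligase. Their adjusted p lay between 6.7e-07 (HSD11B1) and 3.0e-05 (TRMT61A), and each was higher in libraries 1 and 2 of every line, which was a condition of the choice.

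The largest falls, chosen with the same filters among genes lower in every line, were larger in size. Genes that overlap another, such as ENO2 described below, were left out. JPH2 (chromosome 20, 44111695 to 44187578), a junctophilin that ties plasma membrane to sarcoplasmic reticulum in muscle, had 0.405 and 0.74 CPM in PHF8, 0.173 and 0.165 in F279S and 1.35 and 2.22 in wt in libraries 1 and 2, and 7.08 and 4.83 CPM in PHF8, 28.04 and 22.9 in F279S and 33.6 and 23 in wt in libraries 3 and 4. It was lower in every line; F279S was the lowest line among libraries 1 and 2, and PHF8 among libraries 3 and 4 (-3.84 ± 0.33, 2.2e-06). FCGR2B (chromosome 1, 161663147 to 161678654), the inhibitory receptor for IgG, whose near-identical copy FCGR2C can share its reads, had 1.47 and 2.26 CPM in PHF8, 0.649 and 0.658 in F279S and 1.00 and 0.567 in wt against 42.5 and 41.1 CPM in PHF8, 10.8 and 11.4 in F279S and 12.6 and 11.98 in wt. The sets lay far apart in every line, and PHF8 was the highest line in each set (-3.61 ± 0.15, 4.2e-09, a 19.7-fold higher mean in libraries 3 and 4). SLC26A3 (chromosome 7, 107765467 to 107803225), a chloride-bicarbonate exchanger known from the intestine, had 4.00 and 3.66 CPM in PHF8, 3.16 and 4.33 in F279S and 3.4 and 4.22 in wt against 38.5 and 40.9 CPM in PHF8, 49.9 and 47.2 in F279S and 61.1 and 52.2 in wt, a difference of -3.50 ± 0.10 (2.4e-10) that was close in the 3 lines (-3.22 in PHF8, -3.54 in F279S and -3.73 in wt; adjusted p for the interaction = 0.12).

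SPP1 (chromosome 4, 87975650 to 87983426), the secreted phosphoprotein osteopontin, had 20.6 and 21.5 CPM in PHF8, 7.83 and 9.87 in F279S and 3.65 and 2.83 in wt in libraries 1 and 2, and 86.2 and 91.7 CPM in PHF8, 50.4 and 50.9 in F279S and 44.3 and 49.3 in wt in libraries 3 and 4. The sets did not overlap, and the fall was larger in wt (-2.05 in PHF8, -2.46 in F279S and -3.66 in wt; interaction adjusted p = 9.6e-05). NDRG1 (chromosome 8, 133237171 to 133302022), a gene known to be induced by hypoxia, had 86.5 and 94.7 CPM in PHF8, 70.05 and 64.97 in F279S and 112 and 106 in wt against 336 and 332 CPM in PHF8, 545 and 575 in F279S and 508 and 539 in wt, also without overlap (-2.39 ± 0.14, 6.9e-08). The other large falls were TBC1D30, a Rab GTPase-activating protein (-3.15 ± 0.34), PRRG3, a transmembrane protein with a Gla domain (-2.89 ± 0.14), NPTX1, a neuronal pentraxin (-2.30 ± 0.12), ID1, an inhibitor of helix-loop-helix factors (-2.13 ± 0.22), DHRS3, a retinaldehyde reductase (-2.12 ± 0.18), C16orf74 (-1.99 ± 0.08) and NMUR1, a receptor for neuromedin U (-1.99 ± 0.18). PRRG3 was below 0.5 CPM in every library numbered 1 or 2. JPH2 was below it in F279S libraries 1 and 2 and in PHF8 library 1, and NMUR1 in PHF8 libraries 1 and 2. The sizes of these 3 differences therefore depend on the value added before taking logs. So does that of FCGR2B, which was at 0.567 to 2.26 CPM in libraries 1 and 2.

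**Figure D2:**
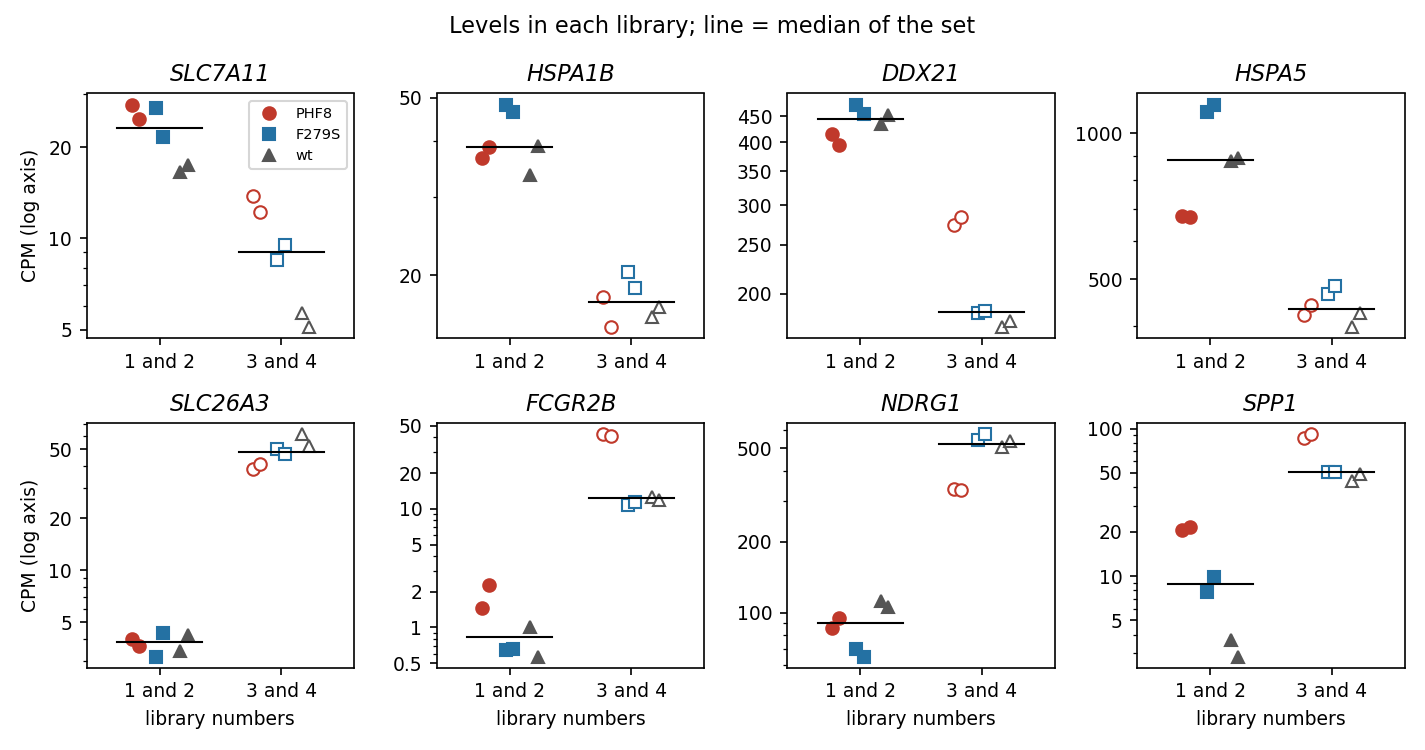
Levels of 8 of the 24 genes with the largest differences among those that passed the filters named in the text, in CPM on a log axis. Libraries 1 and 2 are filled symbols at the left, and libraries 3 and 4 are open symbols at the right. Each point is a library, symbols mark the line and bars the median of the 6 libraries of a set. For all 8 genes the 6 libraries of each set lie on separate sides, with medians such as 23.2 and 9.01 CPM for SLC7A11 and 3.83 and 48.5 CPM for SLC26A3.

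Among the lists examined, ribosome assembly was the most uniform on the higher side. Of the 62 ribosome biogenesis and MYC target genes, 62 were higher and 0 were lower, beside 29.0% and 33.9% of all genes tested. In every line 59 were higher without overlap, beside 20.5% of all genes, with 20.7% lower in this way. These 4 shares of all genes are the background for every list count that follows. Their median difference was 0.66, beside -0.03 over all genes. It was 0.32 in PHF8, 0.80 in F279S and 0.86 in wt. MYC, the transcription factor itself, had 235 to 311 CPM (median 264) in libraries 1 and 2 and 178 to 221 CPM (median 198) in libraries 3 and 4 (0.44 ± 0.03, 3.9e-07), and its difference was alike in the 3 lines (0.49 in PHF8, 0.41 in F279S and 0.42 in wt; interaction adjusted p = 0.51). NOP2 (0.77 ± 0.07), a ribosomal RNA methyltransferase, and NOP56 (0.66 ± 0.06), a core protein of box C/D ribonucleoproteins, were higher. MYBBP1A (0.98 ± 0.09), a nucleolar Myb-binding protein, was higher too but overlaps a neighbouring gene and can share its reads.

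The genes that load and initiate translation were higher as well, while the ribosomal proteins of the cytosol were not. Of 20 cytosolic aminoacyl-tRNA synthetases, 17 were higher and 1, DARS, was lower (median 0.45). GARS, which charges glycine tRNA, had 164 to 181 CPM (median 169) in libraries 1 and 2 and 98.2 to 122 CPM (median 101) in libraries 3 and 4 (0.69 ± 0.04, 3.5e-08). FARSA, which charges phenylalanine tRNA, averaged 253 ± 35.8 CPM against 151 ± 5.34 CPM (0.73 ± 0.06). DARS, which charges aspartate tRNA, averaged 182 ± 2.94 CPM against 249.8 ± 10.9 CPM (-0.46 ± 0.04, 9.5e-07). Of 61 translation factors 40 were higher and 5 lower (median 0.18), EIF2B4 among the higher (0.45 ± 0.05). Of 81 cytosolic ribosomal protein genes, by contrast, 8 were higher and 39 lower, with a median of -0.12 (-0.02 in PHF8, -0.19 in F279S and -0.14 in wt). With pairs averaged 3 were higher and 14 lower, beside 1965 and 2304 of all 13683 genes. Within PHF8 alone 6 were called higher and 1 lower, beside 13.0% and 14.1% of all genes. RPL27 was lower (-0.42 ± 0.06) and RPL19 higher (0.24 ± 0.04). The many processed pseudogenes of this family can take part of its reads, so single members are uncertain. The ribosomal proteins of mitochondria went with the assembly genes, with 66 of 79 higher and 0 lower (median 0.31), MRPL52 (0.80 ± 0.06) and MRPS9 (0.58 ± 0.05) among them.

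Chaperones of the cytosol had the second highest median on the higher side. Of 24 cytosolic heat shock proteins and their cofactors, 20 were higher, all 20 without overlap in every line. Of the others, 1 (HSPA1L, a testis form of HSP70) was lower and 3 (DNAJB4, HSPB1 and HSF2) were not called (median 0.52). HSPA8 had 3077 and 2984 CPM in PHF8, 3483 and 3464 in F279S and 3288 and 3317 in wt in libraries 1 and 2, and 2104 and 2239 CPM in PHF8, 1570 and 1684 in F279S and 1333 and 1482 in wt in libraries 3 and 4, without overlap over the 12 libraries. STIP1, which bridges HSP70 and HSP90, had 303 to 363 CPM (median 353) in libraries 1 and 2 and 205 to 218 CPM (median 213) in libraries 3 and 4 (0.68 ± 0.04, 6.4e-08). HSP90AB1, the constitutive HSP90, averaged 3562 ± 141 CPM against 2199 ± 200.1 CPM (0.70 ± 0.06). DNAJB1, an HSP40 that overlaps another gene, averaged 153 ± 11.7 CPM against 103 ± 5.97 CPM (0.57 ± 0.04). Of the 14 subunits of the chaperonin and of prefoldin, 9 were higher and 0 lower (median 0.35), CCT6A (0.60 ± 0.08) and CCT5 (0.58 ± 0.08) among them. In the ER, 21 of 33 chaperones and unfolded protein response genes were higher and 2 lower (median 0.32). CALR, the lectin chaperone calreticulin, had 1695 to 1912 CPM (median 1808) in libraries 1 and 2 and 1043 to 1231 CPM (median 1131) in libraries 3 and 4 (0.66 ± 0.05, 7.1e-07), and MANF, a secreted ER stress protein, averaged 117 ± 31.5 CPM against 66.05 ± 10.5 CPM (0.79 ± 0.06). EDEM1, which directs misfolded glycoproteins to degradation, was lower (-0.48 ± 0.04), as was the ER oxidase ERO1A (-0.61 ± 0.06), which is also a known hypoxia gene.

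The first 250 bases before and 50 after the start of these genes were searched for letters that known regulators of these programmes bind. Sequences are shown here for a member of each programme that passed the test in every line. RefSeq promoters (GRCh38.p14, 1 start per gene) were found for 10877 of the 13683 tested genes, 569 of them through an older name. The heat shock element GAANNTTC, read on both strands, was present in 9 of 22 promoters of the heat shock list (40.9%), beside 6.87% of all 27305 promoters and 4.80% of the 10877 promoters of tested genes. The E-box CACGTG was present in 22 of 51 promoters of the ribosome biogenesis list (43.1%), beside 7.43% of all promoters and 10.07% of those of tested genes. The ER stress element, CCAAT and CCACG set 9 bases apart, was present in 7 of 29 promoters of the ER list (24.1%), beside 0.0806% and 0.138%. The amino acid response element TGATGNAA was present in 5 of 29 promoters of the integrated stress response list (17.2%), beside 3.67% and 1.79%. Each match describes letters, not binding. These lists hold known targets of the regulators, so their shares do not bear on the difference between the sets. Over genes higher and lower in every line, the E-box was in 13.7% and 8.01% of promoters. The heat shock element was in 5.39% and 4.92%. The ER stress element was in 0.307% and 0.0455%, and the amino acid response element in 1.84% and 2.05%. No element of hypoxia or sterol regulation was searched. Fewer than 80% of the members of those lists had a promoter, so their shares are not given. Capitals below mark the heat shock element in HSPA8 (minus strand, chr11:123062087-123062386), the E-box in NOL6 (minus strand, chr9:33473875-33474174) and the ER stress element in HSPA5 (minus strand, chr9:125241294-125241593).
HSPA8: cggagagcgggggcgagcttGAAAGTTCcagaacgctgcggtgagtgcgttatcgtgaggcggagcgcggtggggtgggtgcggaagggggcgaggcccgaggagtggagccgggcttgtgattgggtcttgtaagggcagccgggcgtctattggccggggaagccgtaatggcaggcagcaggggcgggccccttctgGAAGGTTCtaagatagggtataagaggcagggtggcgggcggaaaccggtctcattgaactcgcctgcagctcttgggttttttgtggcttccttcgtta
NOL6: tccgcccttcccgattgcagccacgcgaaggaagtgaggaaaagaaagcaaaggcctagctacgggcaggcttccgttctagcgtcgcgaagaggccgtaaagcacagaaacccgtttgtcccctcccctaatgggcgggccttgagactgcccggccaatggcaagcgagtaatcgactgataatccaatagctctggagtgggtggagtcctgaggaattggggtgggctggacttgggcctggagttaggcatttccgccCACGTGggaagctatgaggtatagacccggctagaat
HSPA5: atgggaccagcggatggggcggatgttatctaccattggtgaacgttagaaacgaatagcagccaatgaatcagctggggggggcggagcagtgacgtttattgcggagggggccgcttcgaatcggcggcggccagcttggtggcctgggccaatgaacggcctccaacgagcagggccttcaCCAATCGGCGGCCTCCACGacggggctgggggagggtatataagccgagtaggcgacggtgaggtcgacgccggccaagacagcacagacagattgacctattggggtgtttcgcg

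Further lists of growth and protein turnover leaned the same way. Of 34 proteasome genes 29 were higher and 0 lower (median 0.29), PSMD11 (0.63 ± 0.05) and PSMB2 (0.52 ± 0.05) among them. Of 33 genes of one-carbon metabolism and nucleotide synthesis 23 were higher and 5 lower (median 0.32), and 3 were lower without the 2 libraries with collagen transcripts. ATIC (0.72 ± 0.07), which closes the purine ring, and CAD (0.68 ± 0.07), which opens pyrimidine synthesis, were among the higher. Of 77 respiratory chain genes 48 were higher and 2 (COX7C and UQCRH) lower (median 0.15), and with pairs averaged 24 and 1. Of 70 splicing factors 50 were higher and 4 lower (median 0.22), SF3B4 (0.49 ± 0.03) and HNRNPD (0.39 ± 0.03) among them. Of 27 NRF2 antioxidant genes 13 were higher and 3 (ABCC1, CAT and GPX1) lower, PGD (0.36 ± 0.05) and GCLM (0.27 ± 0.04) among the higher.

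Mitotic genes were higher in libraries 1 and 2 by less, and with the larger median in PHF8. Of 53 genes 36 were higher and 1, CDC25C, lower (median 0.19; 0.27 in PHF8, 0.23 in F279S and 0.13 in wt). CDC20, the activator of the anaphase-promoting complex, had 399 to 504 CPM (median 441) in libraries 1 and 2 and 229 to 282 CPM (median 240.5) in libraries 3 and 4 (0.82 ± 0.05, 1.6e-07). BUB1, a spindle checkpoint kinase, averaged 169 ± 9.93 CPM against 127 ± 4.39 CPM (0.41 ± 0.03). PLK1, the polo-like kinase, which overlaps another gene, averaged 195 ± 20.2 CPM against 116 ± 7.23 CPM (0.74 ± 0.04). Of 51 DNA replication genes 27 were higher and 4 lower, RRM2, TK1 and POLD1 among them (median 0.13), and 2 were lower without the 2 libraries with collagen transcripts. Among the higher was MCM5 of the replicative helicase at 375 ± 56.4 CPM against 302 ± 49.1 CPM (0.32 ± 0.03). With pairs averaged, 21 of the 53 mitotic genes were called higher, and 1 lower. Of the 51 DNA replication genes, 11 were then called higher and 1 lower.

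On the lower side, the hypoxia response was the most uniform list. Of its 28 genes 27 were lower, all 27 without overlap in every line, and 1, PFKFB3, was higher (median -0.86; -0.76 in PHF8, -1.06 in F279S and -0.78 in wt). VEGFA (chromosome 6, 43770184 to 43786487), the vascular growth factor, had 37.95 and 39.2 CPM in PHF8, 44.8 and 41.6 in F279S and 48.4 and 48.1 in wt in libraries 1 and 2, and 75.6 and 70.04 CPM in PHF8, 102 and 93 in F279S and 107 and 91.1 in wt in libraries 3 and 4. Both libraries 1 and 2 lay below both libraries 3 and 4 in each line (-1.03 ± 0.05, 3.4e-08). P4HA1, a collagen prolyl hydroxylase, had 91 and 84.1 CPM in PHF8, 74.1 and 73.8 in F279S and 115 and 119.5 in wt against 242 and 257 CPM in PHF8, 221 and 244 in F279S and 236 and 266 in wt, with no overlap in any line (-1.41 ± 0.08, 4.0e-08). The histone demethylases KDM3A and KDM4B, both known HIF targets, averaged 53.2 ± 6.46 CPM against 111 ± 1.7 CPM (-1.06 ± 0.05) and 49.8 ± 7.85 CPM against 124 ± 19.4 CPM (-1.30 ± 0.07). In 19 of the 28 genes the size of the difference varied among the lines (interaction adjusted p below 0.05, which 26.5% of all genes met). That the 27 shared their direction in the 3 lines follows from their lack of overlap in every line.

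Glycolysis, which shares members with the hypoxia list, was lower as well. Of 23 genes of glucose uptake, glycolysis and lactate export 19 were lower and 2 higher (median -0.52): LDHB, a lactate dehydrogenase subunit (0.19 ± 0.05), and SLC16A1, a lactate transporter (0.54 ± 0.10). GAPDH and ENO1 were not called (-0.08 ± 0.04 and -0.05 ± 0.05). ENO2, the neuronal enolase, averaged 4.86 ± 3.02 CPM against 38.4 ± 20 CPM (-2.82 ± 0.15, 3.8e-08), but it overlaps another gene. SLC2A3, the glucose transporter GLUT3, had 1.48 to 7.36 CPM (median 3.94) in libraries 1 and 2 and 4.15 to 21.9 CPM (median 17.3) in libraries 3 and 4 (-1.63 ± 0.10, 1.2e-07). HK2, a hexokinase, averaged 77.04 ± 14.9 CPM against 147 ± 8.38 CPM (-0.95 ± 0.07), and ALDOA, aldolase A, averaged 1486 ± 75.99 CPM against 2251 ± 80.4 CPM (-0.60 ± 0.04). Genes listed under glucose and nutrient sensing were lower in 20 of 27 cases and higher in 4 (median -0.32). TXNIP, an inhibitor of thioredoxin and glucose uptake, had 245 to 314 CPM (median 271) in libraries 1 and 2 and 407 to 510.4 CPM (median 496) in libraries 3 and 4 (-0.78 ± 0.04, 1.8e-08), and its difference was close in the 3 lines (-0.70 in PHF8, -0.77 in F279S and -0.88 in wt). YPEL5 was lower (-0.83 ± 0.12) and the interleukin-6 receptor IL6R higher (0.35 ± 0.05).

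Cholesterol synthesis was lower in libraries 1 and 2. Of 26 sterol genes 23 were lower, all 23 without overlap in every line, and 2 were higher, PMVK (0.44 ± 0.07) among them (median -0.47; -0.30 in PHF8, -0.42 in F279S and -0.68 in wt). HMGCS1, the HMG-CoA synthase, had 168 and 157 CPM in PHF8, 127 and 115 in F279S and 119 and 122 in wt in libraries 1 and 2, and 295 and 314 CPM in PHF8, 200.1 and 207 in F279S and 246 and 258 in wt in libraries 3 and 4. The libraries of the sets did not overlap within any line (-0.90 ± 0.05, 5.2e-08). MSMO1, a sterol methyl oxidase, had 36.3 to 39.1 CPM (median 37.6) in libraries 1 and 2 and 60.6 to 91.7 CPM (median 82.4) in libraries 3 and 4 (-1.03 ± 0.07, 5.5e-07). IDI1, the isopentenyl diphosphate isomerase, averaged 118 ± 12.4 CPM against 191 ± 16.9 CPM (-0.69 ± 0.04). INSIG1, which retains SREBP in the ER, averaged 137 ± 24.3 CPM against 261 ± 22.97 CPM (-0.94 ± 0.10). Fatty acid synthesis genes had no shared direction, with 6 of 21 (28.6%) higher and 7 (33.3%) lower, near the 29.0% and 33.9% of all genes. GPAM, a glycerol-phosphate acyltransferase, was higher (0.53 ± 0.08) and ACSS2, an acetyl-CoA synthetase that overlaps another gene, was lower (-0.61 ± 0.07). PLIN2, which coats lipid droplets, was lower (-0.77 ± 0.05, 3.3e-07), as was PPARD, a fatty acid receptor (-0.87 ± 0.09).

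Genes of the mature monocyte were mostly lower. Of 58 monocyte and macrophage genes 37 were lower and 4 higher (median -0.34), and 32 were lower without overlap in every line. The 12 monocytic markers of the line, summed, were at 2070.0 to 2672 CPM in libraries 1 and 2 and 2552 to 3291 CPM in libraries 3 and 4. In bulk RNA, fewer cells of a kind and less RNA per cell cannot be told apart. VCAN, a matrix proteoglycan of classical monocytes, had 258 and 245 CPM in PHF8, 41.9 and 33.6 in F279S and 53.4 and 53.3 in wt in libraries 1 and 2, and 957 and 843 CPM in PHF8, 173 and 149 in F279S and 158 and 147 in wt in libraries 3 and 4, a difference of -1.81 ± 0.09 (1.8e-08). PHF8 was the highest line in each set, and the sets did not overlap within a line, though the PHF8 libraries 1 and 2 lay above the other lines' libraries 3 and 4. ITGB2, the common chain of the leukocyte integrins, averaged 906 ± 188 CPM against 1360 ± 155 CPM (-0.60 ± 0.05). MNDA, a nuclear interferon-inducible protein of myeloid cells, was higher (0.62 ± 0.06), as were CLEC10A (0.75 ± 0.19), CD36 (0.47 ± 0.11) and CD33 (0.36 ± 0.05). Of 12 class II presentation genes 11 were lower and 0 higher (median -0.48), and CTSS, a lysosomal protease, was not called. With pairs averaged 7 of them were lower and 0 higher. HLA-DRA had 8.06 to 29.3 CPM (median 10.5) in libraries 1 and 2 and 17.9 to 62.7 CPM (median 19.4) in libraries 3 and 4 (-0.98 ± 0.06, 1.2e-07). HLA-DPA1, which overlaps another gene, averaged 2.99 ± 2.12 CPM against 5.82 ± 4.31 CPM (-0.80 ± 0.08). HLA-DRB1 and HLA-DRB5, near-identical copies that can share reads, differed by -0.54 ± 0.05 and -0.55 ± 0.05. Of 22 class I presentation genes 6 (27.3%) were higher and 9 (40.9%) lower, beside 29.0% and 33.9% of all genes. HLA-E was among the lower (-0.51 ± 0.05).

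Adhesion, inflammatory and granule genes leaned to the lower side with more exceptions. Of 49 cytoskeleton and adhesion genes 21 (42.9%) were lower and 8 (16.3%) higher (median -0.13), beside 33.9% and 29.0% of all genes. Of 33 NF-kB targets and chemokines 16 (48.5%) were lower and 5 (15.2%) higher (median -0.12). ICAM1, the adhesion ligand of leukocyte integrins, had 6.03 to 8.72 CPM (median 6.62) in libraries 1 and 2 and 11.8 to 16.3 CPM (median 15.4) in libraries 3 and 4 (-1.02 ± 0.08, 6.9e-07). PLAUR, the urokinase receptor, averaged 43.3 ± 10.9 CPM against 68.7 ± 14.1 CPM (-0.67 ± 0.05). NFKBIA, the inhibitor of NF-kB, averaged 48.1 ± 3.59 CPM against 74.5 ± 9.04 CPM (-0.62 ± 0.05). BCL3 (-1.08 ± 0.10) and ITGA5 (-0.39 ± 0.03) were lower as well. Of 16 granule proteins 11 were lower and 4 higher, with lower CFD (-0.35 ± 0.05) and higher MS4A3 (0.48 ± 0.08). Of 62 lysosomal genes 22 (35.5%) were lower and 18 (29.0%) higher, near the 33.9% and 29.0% of all genes, GPNMB (-1.48 ± 0.15) and GRN (-0.47 ± 0.04) among the lower and ATP6V0D1 (0.38 ± 0.04) among the higher.

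Of 22 genes of the ID family and TGF-beta and BMP signalling, 13 were lower, 12 of them without overlap in every line, and 4 (BMP2, ENG, SNAI1 and TGFB1) were higher (median -0.35). ID2, an inhibitor of helix-loop-helix factors, had 57.9 and 62.6 CPM in PHF8, 61.2 and 66.5 in F279S and 68.95 and 70.2 in wt in libraries 1 and 2, and 184 and 186 CPM in PHF8, 166 and 168 in F279S and 188 and 184 in wt in libraries 3 and 4. No library overlapped between the sets, and the difference of -1.47 ± 0.04 (3.5e-10) was alike in the 3 lines (-1.61 in PHF8, -1.38 in F279S and -1.41 in wt). SMAD7, the inhibitory SMAD, averaged 17.9 ± 4.53 CPM against 55.2 ± 14.3 CPM (-1.60 ± 0.15) and TGFBR1, the type I receptor, averaged 95.9 ± 7.27 CPM against 164 ± 4.95 CPM (-0.78 ± 0.05). Of 35 immediate early genes 22 were lower and 6 higher (median -0.39). KLF10, a TGF-beta-inducible zinc finger factor, had 38.7 and 38.9 CPM in PHF8, 37.3 and 37.7 in F279S and 36.8 and 33.5 in wt against 104 and 108 CPM in PHF8, 126 and 128 in F279S and 124 and 128 in wt, without overlap (-1.67 ± 0.06, 1.2e-09). DUSP6, a phosphatase of ERK, was lower (-0.83 ± 0.08, 2.9e-06). Of 31 p53-linked and growth arrest genes 16 were lower and 4 (AEN, PLK2, TIGAR and BAX) higher (median -0.26). CDKN1A, the inhibitor p21, had 14.6 to 44.7 CPM (median 25.7) in libraries 1 and 2 and 55.6 to 78.8 CPM (median 72.4) in libraries 3 and 4 (-1.36 ± 0.13, 3.5e-06). GADD45A (-0.72 ± 0.09) and BTG2 (-0.59 ± 0.05) were lower as well.

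**Figure D3:**
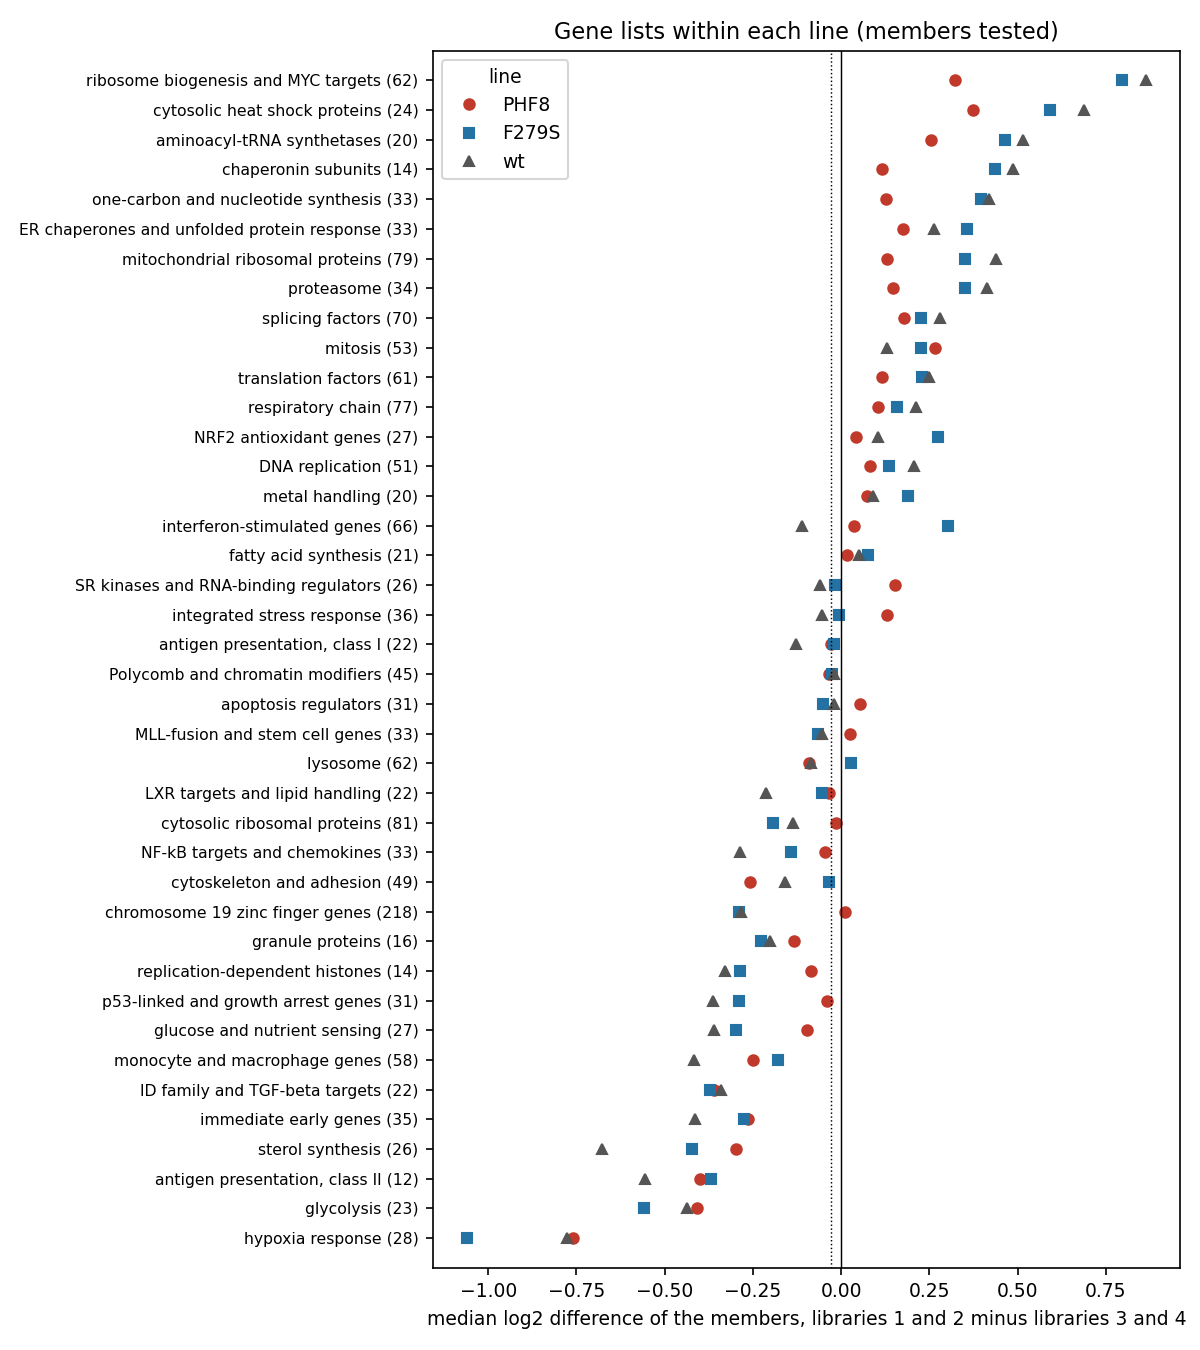
Median log2 difference (libraries 1 and 2 minus libraries 3 and 4) of each gene list with at least 10 tested members, within PHF8, F279S and wt; the number of members tested stands in brackets, the solid line is 0 and the dotted line the median of all 13683 genes (-0.03). Ribosome biogenesis lies highest (0.32, 0.80 and 0.86) and the hypoxia response lowest (-0.76, -1.06 and -0.78), and the PHF8 point is nearer to 0 than the other two in most lists above 0.

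Several lists held calls in both directions, as did all genes tested (29.0% higher and 33.9% lower). Of 36 integrated stress response genes 12 were higher and 8 lower, with a median of -0.001 that changed sign under 17 alternative settings. In this list ASNS, asparagine synthetase (0.46 ± 0.04), and SLC1A5, a glutamine transporter that overlaps another gene (0.51 ± 0.05), were higher beside SLC7A11, while VEGFA was lower. Of 66 interferon-stimulated genes 20 (30.3%) were higher and 15 (22.7%) lower, and 35 differed among the lines. Without the 2 libraries with collagen transcripts 13 were higher and 14 lower, and with pairs averaged 6 and 7. The median was 0.04 in PHF8, 0.30 in F279S and -0.11 in wt. TRIM14 (0.58 ± 0.06) and LAP3 (0.45 ± 0.06) were higher, and TAP1 (-0.35 ± 0.03) and DDX60L (-0.66 ± 0.07) lower; of these LAP3 alone overlaps no other gene. Of 33 MLL-fusion and stem cell genes 9 (27.3%) were higher and 9 (27.3%) lower. MEN1, the menin cofactor of MLL (0.49 ± 0.04), and MYB (0.36 ± 0.03) were higher and GATA2 (-0.58 ± 0.05) lower. Of 45 Polycomb and chromatin genes 9 (20%) were higher and 15 (33.3%) lower, the lower share near that of all genes. CBX7 (-0.85 ± 0.07) and JARID2 (-0.39 ± 0.05) were among the lower. Of 31 apoptosis regulators 11 were higher and 6 lower, with higher BCL2L11 (0.36 ± 0.05) and lower BMF (-1.24 ± 0.14). Of 20 metal-handling genes 8 were higher and 4 lower, SLC39A14, a zinc and iron importer, among the higher (0.85 ± 0.11). Of 26 SR kinases and RNA-binding regulators 10 were higher and 7 lower, CLK1 (0.58 ± 0.08) among the higher.

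Of the 218 zinc finger genes of chromosome 19 with enough reads, 18 were higher and 99 lower (median -0.18; 0.01 in PHF8, -0.29 in F279S and -0.29 in wt), ZNF160 (-0.98 ± 0.11) and ZNF296 (0.60 ± 0.08) among them in opposite directions. With quantile normalization 42 of these genes were higher and 64 lower (median -0.04), and with pairs averaged 9 and 33. Of 14 tested replication-dependent histone genes 8 were lower and 1 higher (median -0.23), and their median turned to 0.12 with quantile normalization; these transcripts lack poly(A) tails and are poorly captured by poly(A) selection. Low levels went with the lower side more widely. Genes were put into 5 classes of equal size by their mean level: in the class with the lowest levels (0.51 to 7.76 CPM) 7.09% were higher and 53.8% lower, and in the class with the highest levels 44.1% were higher and 23.6% lower. In 5 such classes by span, the longest genes had 17.6% higher and 46.3% lower, and the shortest 32.8% and 30.1%. The deposited RPKM divides by the whole span of a gene, and whether reads in introns were counted is not given in the sources used. Genes that did not enter the test (6101) summed to 521 to 777 CPM in libraries 1 and 2 and 904 to 1217 CPM in libraries 3 and 4. With every library thinned to 18239474 reads, 3855 genes were higher and 4399 lower. The part of level and span in each list's result was not tested. At a filter of 5 CPM, 3882 genes were higher and 3653 lower, so the larger number lay on the higher side there.

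**Figure D4:**
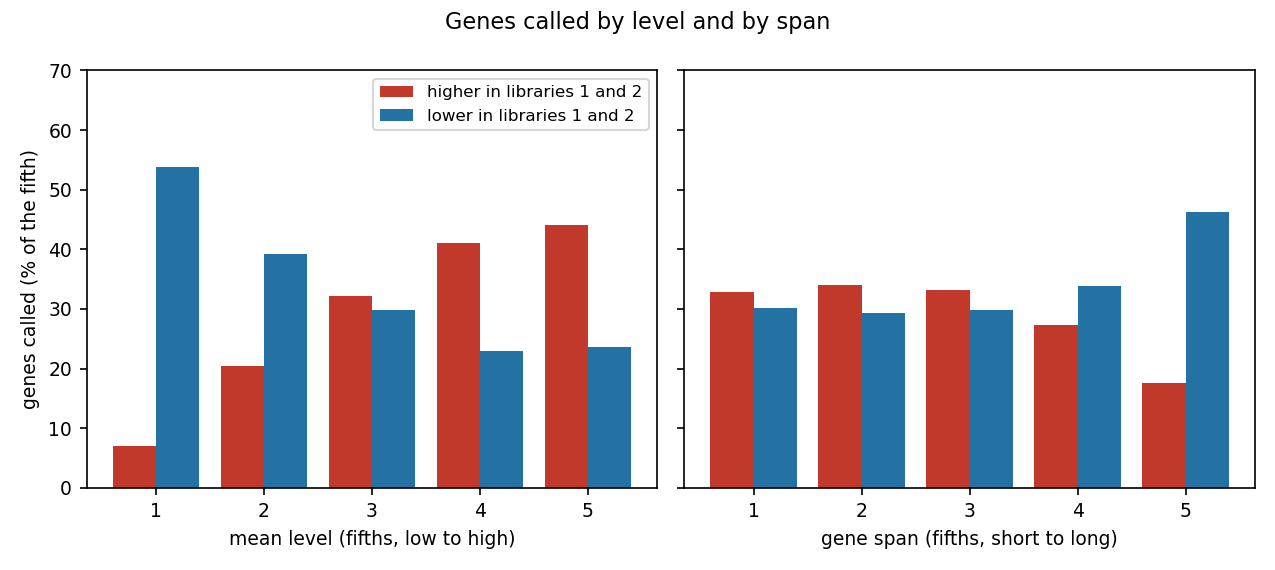
Share of tested genes called higher (red, left bar) or lower (blue, right bar) in libraries 1 and 2, in 5 classes of equal size by mean level over the 12 libraries (left panel) and by gene span (right panel); the vertical axis is the percentage of the genes in a class. Lower calls fall to 23.6% in the class with the highest levels, against 53.8% in the lowest, and reach 46.3% among the longest genes.

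The lines mostly shared the direction but not the size. Within PHF8 1785 genes (13.0%) were higher and 1928 (14.1%) lower, within F279S 3699 (27.0%) and 4197 (30.7%), and within wt 3846 (28.1%) and 4417 (32.3%). Without PHF8 library 1 and F279S library 2, the count within PHF8 was 2090, and each PHF8 library left out alone gave 1986 to 2378. The 3 within-line differences share no library. They are not fully independent, because differences of library 3 minus library 4 correlated with 0.58 to 0.66 between lines. Of 2873 genes called in both PHF8 and wt, 2676 had the same direction, as did 2754 of 2902 in PHF8 and F279S and 6723 of 6749 in F279S and wt. Across the 13683 genes, which are not independent replicates, those of F279S and wt correlated with r = 0.91, PHF8 and F279S with 0.66, and PHF8 and wt with 0.60. The slope on wt was 0.37 for PHF8 and 0.86 for F279S. Among the 5629 genes that differed in every line, PHF8 had the smallest difference in 4150 (73.7%), and the median absolute difference was 0.24 in PHF8, 0.41 in F279S and 0.44 in wt. In all, the difference varied among the lines for 3621 genes (26.5%; limma, interaction), which was 1939 without the 2 libraries with collagen transcripts, 2087 without PHF8 library 1, 1963 without PHF8 library 2 and 1893 without PHF8 library 4.

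In DDX21, whose direction was shared, the lines differed in size. In wt its level in libraries 1 and 2 was 435 and 453 CPM against 172 and 176 CPM in libraries 3 and 4, and in PHF8 it was 415 and 394 CPM against 273 and 284 CPM, so the line by set interaction was called (2.1e-05). The lists of ribosome biogenesis (56 of 62 members), hypoxia (19 of 28) and sterol synthesis (21 of 26) had many such members, beside 26.5% of all genes. The class II list had 0 of 12 and the cytosolic ribosomal proteins 1 of 81.

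A smaller group differed in opposite directions. In 250 genes at least 2 lines were called with opposite signs; the 6 with the smallest interaction p among those averaging at least 5 CPM and overlapping no other gene are given here. CRIP2, a LIM domain protein (chromosome 14, 105472962 to 105480170), had 3.75 and 3.7 CPM in PHF8, 6.79 and 7.51 in F279S and 3.96 and 3.97 in wt in libraries 1 and 2, and 12.2 and 11.7 CPM in PHF8, 3.48 and 3.32 in F279S and 1.56 and 1.49 in wt in libraries 3 and 4. It was lower in libraries 1 and 2 of PHF8 and higher in those of the other lines (-1.55 in PHF8, 0.97 in F279S and 1.14 in wt; interaction adjusted p = 1.0e-06). TFRC, the transferrin receptor that imports iron (chromosome 3, 196027183 to 196082189), had 258 and 250.5 CPM in PHF8, 453 and 413 in F279S and 465 and 449 in wt against 346 and 363 CPM in PHF8, 307 and 312 in F279S and 281 and 289.8 in wt. It showed the same pattern (-0.48 in PHF8, 0.48 in F279S and 0.68 in wt; 6.5e-06), as did TNFRSF21, death receptor 6 (-0.23 in PHF8, 0.99 in F279S and 1.02 in wt; 1.5e-05). MYBPH, a myosin-binding protein (chromosome 1, 203167811 to 203175813), had 76.01 and 78.2 CPM in PHF8, 21.98 and 22.2 in F279S and 14.9 and 13.96 in wt against 55.5 and 50.6 CPM in PHF8, 55.6 and 57.8 in F279S and 29.6 and 29.2 in wt. It was higher in PHF8 and lower in the other lines (0.54 in PHF8, -1.34 in F279S and -1.004 in wt; 5.2e-07). PAQR8, a membrane progesterone receptor (-0.57 in PHF8, -0.43 in F279S and 0.53 in wt; 3.4e-06), and PALD1, paladin (-0.81 in PHF8, -0.25 in F279S and 0.61 in wt; 4.2e-06), were higher in wt and lower in PHF8 and F279S.

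**Figure D5:**
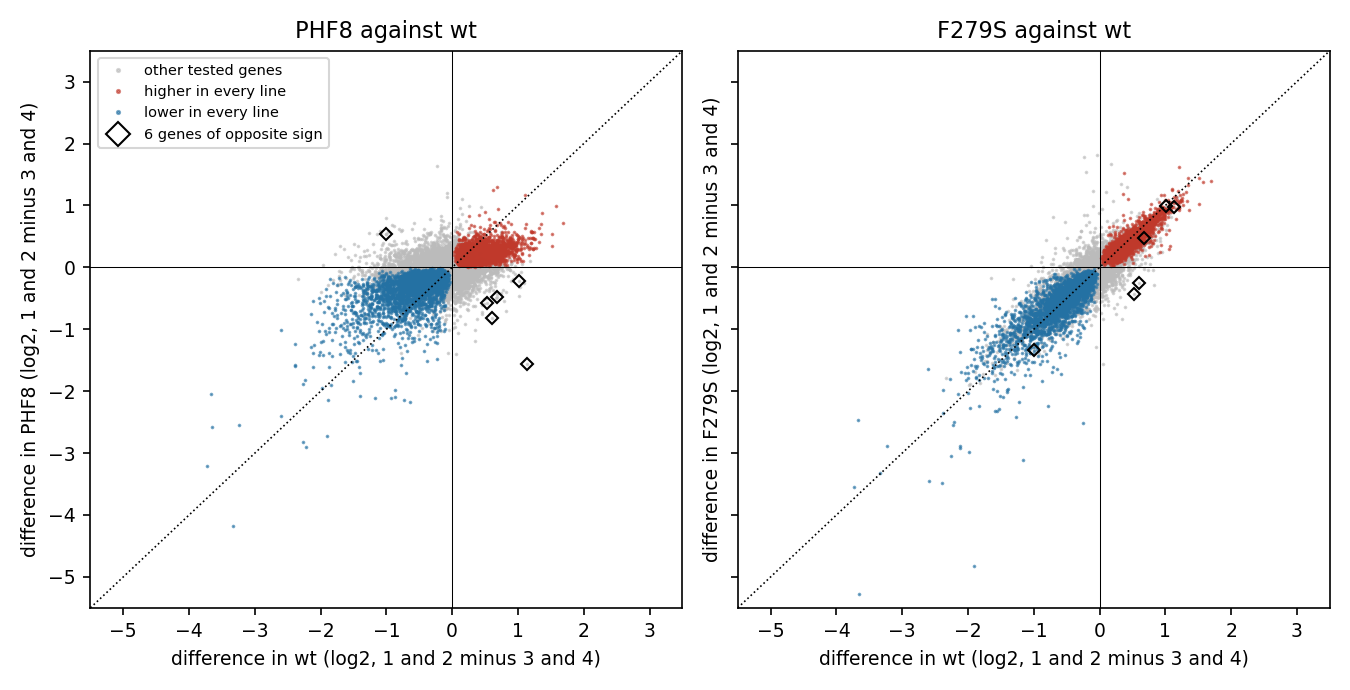
Log2 difference between the sets (libraries 1 and 2 minus libraries 3 and 4) within PHF8 (left panel, vertical axis) and within F279S (right panel, vertical axis) against the same difference within wt (horizontal axes); each point is a gene, red and blue points are higher or lower in every line, diamonds are the 6 named genes of opposite sign and the dotted line marks equal differences. Points of PHF8 lie below the dotted line in size (slope 0.37), and those of F279S lie close to it (slope 0.86).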

How the data were processed

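RNA-seq of THP-1 cells was deposited as 1 table per library. Each lists 19784 genes with hg38 coordinates and an RPKM value, which the authors deposited after alignment. The submitters' processing notes name hg38, STAR 2.7.0c, SAMtools 1.9 and DESeq2. The counter, its strand setting and its annotation are not given in the sources used. RPKM times gene span gave whole reads for all values (within 0.001 reads), so the span was the length used; whether intronic reads were counted is unknown. CPM was RPKM times span in kb, and 12 libraries holding 18239474 to 51517469 reads were used; the other 6 carry ER in their names and have no libraries 3 and 4. Overlapping genes (6569 of 19784) can share reads, and no interval beyond the spread between libraries is given.

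Genes with at least 1 CPM in 4 libraries (13683) were fitted with limma 3.58.1 in R 4.3.3 on log2(CPM + 0.5) with a mean-dependent prior variance: set plus line, and line by set for the differences within a line and for the interaction F-test; a gene was called at a Benjamini-Hochberg adjusted p below 0.05, here and for every bracketed p. Values after ± are SE for log2 differences and SD over the 6 libraries of a set (n = 6) for CPM means. The script was tested on simulated data. Named genes were the 12 largest rises and falls called in every line (at least 5 CPM in the higher set, no overlap with another gene), up to 4 members per list by smallest p, the 6 genes of opposite sign by smallest interaction p, and PHF8; exceptions within a list were named after their values were seen. Some of these genes are not reported here. Members and lists (44) were chosen with earlier results of these data known. Paired libraries of a set in a line differed by more than sampling noise (chi-square per degree of freedom 1.98 to 11.8) and were counted separately. Alternatives covered pseudocounts, filters, scalings, recovered reads (voom, thinning), GC and span smooths, blocks and left-out libraries or lines; quantile normalization and leaving out both libraries with collagen transcripts were chosen after seeing the data.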

Additional observations from a re-analysis of the deposited data

Results flagged for a closer look

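The difference between the sets differed among PHF8, F279S and wt for 3621 of 13683 genes (limma, F-test of the interaction, adjusted p below 0.05). MYBPH had the smallest such p among the genes of opposite sign that were named, with 0.54 in PHF8, -1.34 in F279S and -1.004 in wt (adjusted p = 5.2e-07), followed by CRIP2 with -1.55 in PHF8, 0.97 in F279S and 1.14 in wt (1.0e-06). PAQR8 differed by -0.57 in PHF8, -0.43 in F279S and 0.53 in wt (3.4e-06) and PALD1 by -0.81 in PHF8, -0.25 in F279S and 0.61 in wt (4.2e-06). TFRC differed by -0.48 in PHF8, 0.48 in F279S and 0.68 in wt (6.5e-06) and TNFRSF21 by -0.23 in PHF8, 0.99 in F279S and 1.02 in wt (1.5e-05). A check looked for a library far from the rest of its set of 6. Over the 24 genes named as largest rises and falls and 4 library measures in each set, 0 of 56 checks found any. A set holds 2 libraries of each line, so a line that stands apart hides itself. FCGR2B in libraries 3 and 4 was not marked, at 42.5 and 41.1 CPM in PHF8 and 10.8 to 12.6 CPM in the other lines. The fibroblast genes were not in this check, so it does not show that no library stood apart.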

How the results depend on the processing

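Over 32 alternative settings, 5774 results for the 184 named genes kept direction and side of the threshold, 50 lost the call, 10 gained one and 1 reversed. The reversal was CD5, a T cell gene at no more than 2.41 CPM, which differed by -0.45 (adjusted p = 0.013) and by 0.003238 with quantile normalization (adjusted p = 0.989); over its settings the adjusted p lay between 0.00136 and 0.989, and the cause was not tested. Fewer genes were called with pairs averaged (4269, of which 1965 higher and 2304 lower), which leaves 6 means; without the line block 2999 were lower, and leaving out the line F279S 3041 were lower. Among genes that overlap no other gene, where fewer were tested, 5272 were called (2274 higher, 2998 lower), 2337 for the interaction, 2435 within PHF8, 4882 within F279S and 5025 within wt, and 3434 in every line (1566 higher, 1868 lower). Without both libraries with collagen transcripts 1939 were called for the interaction and 2090 within PHF8; the cause was not tested. Leaving out each library in turn gave 7744 to 8921 called genes (3669 to 4033 higher, 4075 to 4888 lower), 1893 to 4510 for the interaction, 1986 to 4185 within PHF8, 5935 to 8222 within F279S and 6687 to 8376 within wt, and 5619 to 6841 in every line (2796 to 3173 higher, 2823 to 3668 lower). The interaction count was lowest without PHF8 library 1 (2087), 2 (1963) or 4 (1893), and the count within PHF8 without its library 1 (1986), 2 (2166), 3 (2378) or 4 (2293); a lone library was assumed to vary like the others. Medians of the lists for class I presentation, apoptosis, fatty acid synthesis, the integrated stress response, interferon-stimulated genes, MLL-fusion genes, Polycomb, histones and RNA-binding regulators changed sign under at least 1 setting. Same-numbered libraries deviated together in libraries 3 and 4, where differences of 3 minus 4 correlated with 0.58 to 0.66 between lines, but not in libraries 1 and 2 (1 minus 2, -0.06 to 0.08), so the numbers were not taken as pairs. A fit with the library number as a replicate block called 8623 genes, all 8602 calls among them. Its correlation within a number was estimated at -0.00447, so it was nearly the main fit. It therefore does not account for the shared deviations of libraries 3 and 4, whose lines are not fully independent there. Depth limits the precision of the lowest genes; with all libraries thinned to 18239474 reads 3855 genes were higher and 4399 lower.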

Other observations

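The other 6 libraries of the series came from THP-1 lines whose names carry ER (genotypes PHF8AA, PHF8DD and PHF8). Their titles give day 3, and the titles of the compared libraries give no day. These 6 libraries entered no comparison, and their levels are given as values. They lay between the sets for SLC26A3 (18.6 to 27.9 CPM, against 3.16 to 4.33 CPM in libraries 1 and 2 and 38.5 to 61.1 CPM in libraries 3 and 4) and for ID2 (82.5 to 142 CPM, against 57.9 to 70.2 CPM and 166 to 188 CPM). NDRG1 was at 48.5 to 78.2 CPM, around or under the 65.0 to 112 CPM of libraries 1 and 2 and below the 331 to 575 CPM of libraries 3 and 4. HSPA1B was at 26.2 to 83.5 CPM, above libraries 3 and 4 (15.3 to 20.3 CPM) and around libraries 1 and 2 (33.6 to 48.3 CPM). SLC7A11 reached 24.3 to 120 CPM, against 16.6 to 27.6 CPM in libraries 1 and 2 and 5.10 to 13.8 CPM in libraries 3 and 4.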
